A study of Homo sapiens with 30 samples.

Results

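The genes described here are known targets of the transcription factor p53, namely MDM2, BBC3, BAX, TP53I3, FAS, BTG2, SESN1, GDF15 and TP53INP1. They were chosen by symbol, with earlier results of these data known, and all 9 were found among the 20367 gene symbols of the PRO-Seq table. The data come from G401, an established malignant rhabdoid tumor (MRT) cell line that has lost SNF5, the SWI/SNF chromatin remodeling subunit encoded by SMARCB1. The cells carried a lentiviral, doxycycline-inducible and HA-tagged EGFP (the control), OmoMYC (a dominant-negative MYC mutant) or SNF5, were selected with G418 as populations, and were all given 1 μg/ml doxycycline for 24 h. PRO-Seq, a nuclear run-on assay that maps engaged RNA polymerases, and ATAC-Seq, which maps open chromatin, each had 3 samples per construct, and MYC ChIP-Seq had 2. The study describes the PRO-Seq and ChIP-Seq replicates as independent experiments, though the labels do not say how they were separated. The p-values measure the spread between these samples that is left after differences between replicate numbers are removed.

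The protein p53 accumulates after DNA damage and other stresses and binds response elements made of a pair of decamers near its target genes. Its targets include MDM2, the ubiquitin ligase that in turn marks p53 for degradation, and genes for cell-cycle arrest, DNA repair, metabolism and cell death. MYC is a bHLHZip factor that binds the E-box CACGTG at many promoters.

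The SNF5 samples could be checked at SMARCB1. Its gene body held 4, 1 and 6 reads in the EGFP samples, 2, 5 and 4 in the OmoMYC samples and 2870, 4467 and 3440 in the SNF5 samples. The defining loss of the MRT line was thus seen in EGFP and OmoMYC cells, and the introduced SNF5 in the SNF5 cells. These reads do not tell EGFP samples from OmoMYC samples. Samples held 28444943 to 46957634 gene body reads. Promoter-proximal reads were 518900 to 672874 in the samples numbered 1 and 2027512 to 3386528 in those numbered 2 and 3, so promoter-proximal values of replicate 1 rest on fewer reads for each construct.

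Sequences are shown for the members at which a response element or MYC peak could be placed, to let the transcription and chromatin data be read against them. A pair of adjacent decamers in the p53 pattern, each with a core of C, a pair of A or T bases and G, and with at most 2 mismatches outside the cores, was found for 3 of the 9 genes in the 2.5 kb on either side of the start. Over all symbols it was 470 of 20367 (2.31%), and over 34 other p53 target genes 12 (35.3%). The pattern was searched on both strands of hg19, and the 3 elements are given 5′ to 3′ on the strand of the gene with both cores in capitals.
FAS element: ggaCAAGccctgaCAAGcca
GDF15 element: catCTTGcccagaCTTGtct
BTG2 element: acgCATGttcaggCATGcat
The FAS element lies at chr10:90751066-90751085 (hg19, plus strand), 787 bp downstream of the start, in sequence that is exonic in 2 of the 12 annotated transcripts that span it and intronic in the others. The GDF15 element, at chr19:18496118-18496137 (plus strand), is at −841 bp from the start in the PRO-Seq table and in an intron of longer annotated transcripts. The BTG2 element, at chr1:203272770-203272789 (plus strand), is at −1885 bp from the start, outside the annotated gene. No match was found for the other 6 genes, which says only that these letters are not in their windows.

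The E-box was searched in RefSeq promoters, from 250 bases before to 50 after a start. Promoter sequences were at hand for 8 of the 9 genes, with 15 starts, and 2 of the 15 held CACGTG (13.3%, against 7.26% of 35116 promoters). These were BBC3 and BAX, the latter with 4 copies, capitalized below in the 250 bases upstream of the BAX start (GRCh38.p14, chr19:48954625-48954874, plus strand).
BAX promoter: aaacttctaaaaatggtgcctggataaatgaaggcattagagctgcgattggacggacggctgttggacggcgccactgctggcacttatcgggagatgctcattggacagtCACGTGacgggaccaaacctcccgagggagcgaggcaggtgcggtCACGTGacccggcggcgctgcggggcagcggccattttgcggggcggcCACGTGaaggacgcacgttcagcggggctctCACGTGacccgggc

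Transcription of the 9 genes in the EGFP control differed widely. Gene body density is given in RPKM, reads per kb of gene body scaled to the gene body reads of the sample times its RLE factor. It was highest for GDF15 at 92.3 ± 7.71 (SD, n = 3) and lowest for FAS at 0.162 ± 0.121. The mean of GDF15, a secreted TGF-β family stress cytokine, was 4.31-fold that of MDM2, the next gene. MDM2 (21.4 ± 3.59) and BTG2 (19.7 ± 2.26), an antiproliferative cofactor of mRNA deadenylation, overlapped in their samples. BAX (11.5 ± 2.33) overlapped TP53I3 (9.51 ± 2.75), and BBC3 (5.38 ± 0.763) overlapped TP53INP1 (4.13 ± 0.541). SESN1, at 0.850 ± 0.0397, and FAS each stood apart from the gene above them in this order.

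The comparison with EGFP asked how these genes respond to blocking MYC and to restoring SNF5, and the direct comparison of SNF5 with OmoMYC whether the responses differ. With OmoMYC, gene body reads of SESN1 rose and those of GDF15, MDM2 and BBC3 fell. With SNF5, FAS and SESN1 rose and BBC3 and TP53I3 fell. Between SNF5 and OmoMYC, MDM2 and GDF15 were higher with SNF5 and TP53I3 was lower. The contrasts with EGFP share the same 3 control samples, so the changes with OmoMYC and SNF5 are given side by side and were not correlated.

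In counts, 4 of 9 genes were called with OmoMYC at an adjusted p under 0.05 (edgeR quasi-likelihood test with the replicate number as a block, 15060 genes tested), beside 8.53% of all genes. SNF5 against EGFP also called 4 of 9, beside 34.1% of all genes, and SNF5 against OmoMYC 3 of 9, beside 18.9%. The median log2 fold change of the 9 genes was −0.09 with OmoMYC, −0.13 with SNF5 and 0.03 between SNF5 and OmoMYC, against −0.0003, −0.03 and −0.01 for all genes. The called genes moved in both directions in each contrast. Without the replicate block 0 members were called in any contrast, and none of the 4 calls with OmoMYC was kept without EGFP replicate 1 or 2 or OmoMYC replicate 1 or 2 (adjusted p up to 0.214 for MDM2, 0.199 for GDF15, 0.209 for SESN1 and 0.221 for BBC3).

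**Figure D1:**
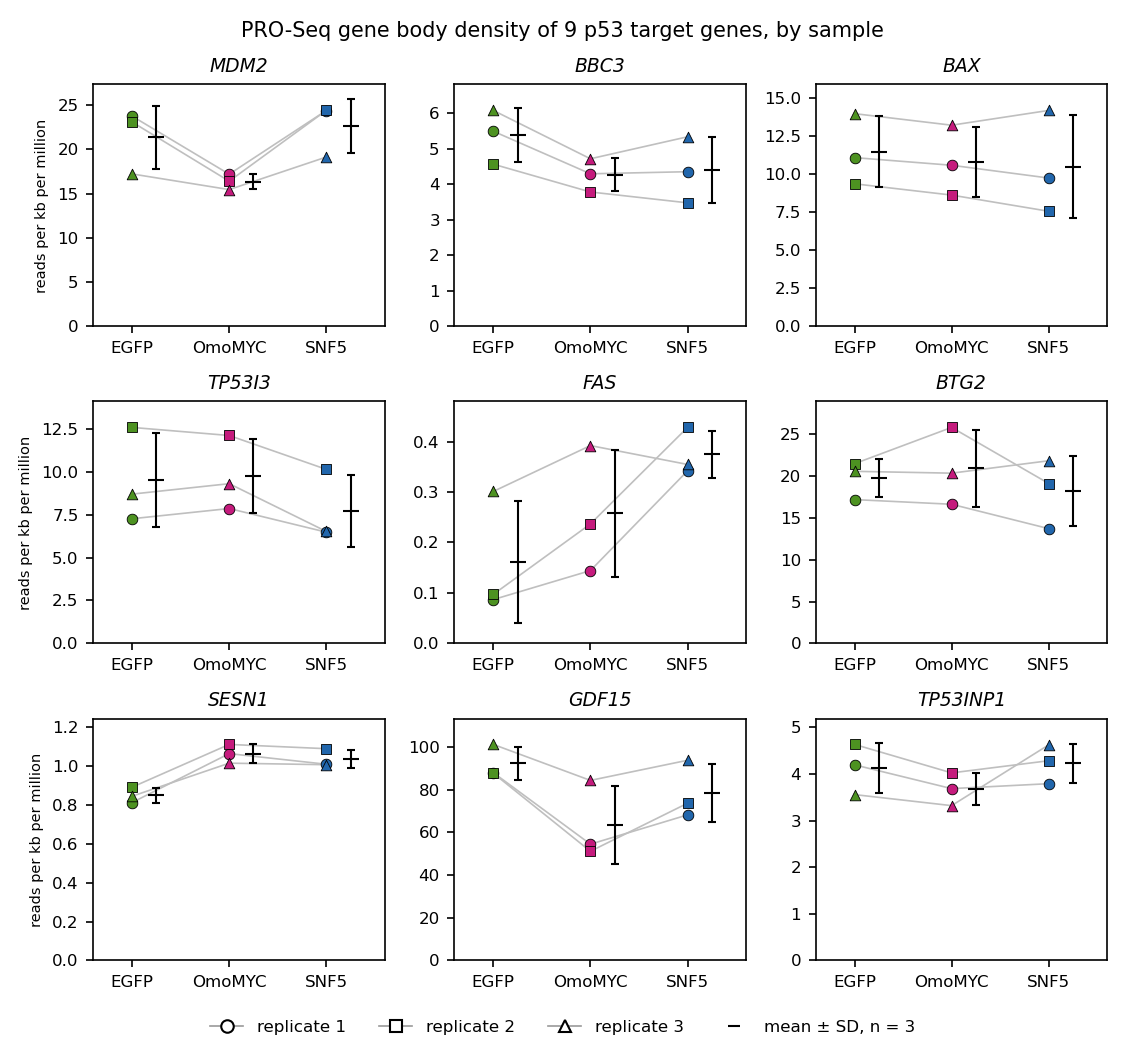
Gene body density (RPKM, each axis from 0) of the 9 p53 target genes in the 3 PRO-Seq samples of each construct. Symbols mark the replicate number, grey lines join samples of the same number, and bars give mean ± SD (n = 3). MDM2 and GDF15 dipped with OmoMYC, SESN1 was higher with both constructs, and FAS was lowest in EGFP replicates 1 and 2.

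MDM2, the negative regulator of p53, spans chr12:69201971-69239212 of hg19 on the plus strand. Its density was 23.8, 23.1 and 17.2 in EGFP replicates 1, 2 and 3, 17.2, 16.4 and 15.5 with OmoMYC and 24.4, 24.4 and 19.1 with SNF5. The OmoMYC samples lay below all EGFP and SNF5 samples, if only narrowly at EGFP replicate 3, and replicate 3 was the lowest of its group in each construct. The log2 fold change with OmoMYC was −0.37 (SE 0.07, adjusted p = 0.0256), a change of −22.7%. With SNF5 it was 0.09 (SE 0.07, 95% confidence interval −0.07 to 0.24, adjusted p = 0.344). SNF5 exceeded OmoMYC by 0.46 (SE 0.07, adjusted p = 0.00228), higher in 3 of 3 replicate pairs, and this call was kept with each of the 9 samples left out in turn (0.40 to 0.55).

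The genes whose gene body level was most like that of MDM2 across the 9 samples, after removal of each replicate number's mean, were MEMO1 (Pearson's r = 0.993), DLG2 (0.991) and POLR3F (0.987). These are given as a description, chosen among 15059 genes whose samples share libraries and depth.

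Among the genes of cell death, BBC3 encodes PUMA, a BH3-only protein that frees BAX, and BAX encodes the pore former of the outer mitochondrial membrane. BBC3, at chr19:47724079-47736023 on the minus strand, had densities of 5.50, 4.57 and 6.08 with EGFP, 4.30, 3.79 and 4.72 with OmoMYC and 4.36, 3.48 and 5.34 with SNF5. The groups overlapped, but in each replicate number the EGFP sample was the highest. The log2 fold change was −0.33 with OmoMYC (SE 0.07, adjusted p = 0.0299) and −0.30 with SNF5 (SE 0.07, adjusted p = 0.0103). Between SNF5 and OmoMYC it was 0.03 (95% confidence interval −0.13 to 0.19, adjusted p = 0.809). The OmoMYC value also lost its call without SNF5 replicate 1 (adjusted p = 0.0522), and the SNF5 value without EGFP replicate 1 or 2 (0.0544 for each) or SNF5 replicate 2 (0.0731).

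BAX (chr19:49458117-49465055, plus strand) had densities of 11.1, 9.38 and 14 with EGFP, 10.6, 8.64 and 13.2 with OmoMYC and 9.76, 7.58 and 14.2 with SNF5. Replicate 3 was the highest in each group, and the groups overlapped fully. The log2 fold change was −0.09 with OmoMYC (95% confidence interval −0.25 to 0.08, adjusted p = 0.456) and −0.15 with SNF5 (−0.32 to 0.01, adjusted p = 0.134). Without SNF5 replicate 3 the latter was −0.24 and passed the test (adjusted p = 0.0108).

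TP53I3 (PIG3), a quinone oxidoreductase, lies at chr2:24300303-24308085 on the minus strand. It had densities of 7.26, 12.6 and 8.69 with EGFP, 7.85, 12.1 and 9.30 with OmoMYC and 6.48, 10.1 and 6.52 with SNF5. Replicate 2 was the highest throughout, and within each number SNF5 was the lowest. TP53I3 fell by 0.30 with SNF5 on the log2 scale (SE 0.07, adjusted p = 0.0122). With OmoMYC the value was 0.05 (95% confidence interval −0.11 to 0.21, adjusted p = 0.667). SNF5 lay below OmoMYC by a log2 fold change of −0.35 (SE 0.07, adjusted p = 0.00965). The SNF5 call against EGFP was lost without EGFP replicate 2 (adjusted p = 0.0741), and that against OmoMYC without OmoMYC replicate 1 (0.0517).

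FAS encodes the death receptor that triggers apoptosis from the cell surface, and it showed the largest fold change of the 9 genes. It lies at chr10:90750288-90775542 on the plus strand, and its low counts are given directly. Gene body reads were 73, 70 and 338 with EGFP, 121, 169 and 443 with OmoMYC and 335, 370 and 383 with SNF5. As densities these were 0.0868, 0.0971 and 0.301 with EGFP, 0.144, 0.237 and 0.392 with OmoMYC and 0.342, 0.428 and 0.355 with SNF5. EGFP replicate 3 stood far above the other EGFP samples but below all SNF5 samples. OmoMYC replicate 3 was likewise the highest of its group. FAS was 2.65-fold higher with SNF5 (log2 fold change 1.41, SE 0.33, adjusted p = 0.0122). It was higher in 3 of 3 pairs, but least so in replicate 3 (0.301 with EGFP and 0.355 with SNF5). With OmoMYC the log2 fold change was 0.71 (SE 0.33, 95% confidence interval −0.03 to 1.46, adjusted p = 0.190), also higher in 3 of 3 pairs. Without EGFP replicate 3 it was 1.87 with SNF5 (adjusted p = 0.00357) and 1.26 with OmoMYC (0.0322). The OmoMYC value also passed the test without SNF5 replicate 3 (0.74, adjusted p = 0.0178). The SNF5 call was lost without EGFP replicate 1 (1.26, adjusted p = 0.0689), EGFP replicate 2 (1.14, 0.0708) or SNF5 replicate 1 (1.13, 0.0508). SNF5 against OmoMYC gave 0.69 (adjusted p = 0.165), and 1.16 without SNF5 replicate 3 (adjusted p = 0.00227).

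FAS has neighbours on the opposite strand, and whether gene body reads were counted by strand is not given in the sources used here. ACTA2, the smooth muscle actin gene, overlaps FAS by 860 bp, all of it in the first kb of FAS that the gene body leaves out. FAS-AS1 overlaps the FAS gene body by 1445 bp and held 2, 10 and 22 reads with EGFP, 4, 22 and 24 with OmoMYC and 3, 44 and 21 with SNF5. ACTA2 itself was higher with SNF5 by 0.64 on the log2 scale (adjusted p = 0.0141) and with OmoMYC by 0.56 (adjusted p = 0.0583).

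SESN1 (sestrin 1), which restrains mTORC1 signaling, rose against EGFP with both constructs. It spans chr6:109307640-109415708 on the minus strand. Its density was 0.813, 0.892 and 0.845 with EGFP, 1.06, 1.11 and 1.02 with OmoMYC and 1.01, 1.09 and 1.01 with SNF5. All 6 OmoMYC and SNF5 samples lay above the 3 EGFP samples. The log2 fold change was 0.32 with OmoMYC (SE 0.05, adjusted p = 0.0191) and 0.28 with SNF5 (SE 0.05, adjusted p = 0.00389), and −0.04 between SNF5 and OmoMYC (95% confidence interval −0.16 to 0.08, adjusted p = 0.640). The SNF5 call was kept with each of the 9 samples left out (0.26 to 0.30).

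GDF15 lies at chr19:18496968-18499986 on the plus strand. Its density was 88.0, 87.7 and 101 with EGFP, 54.5, 51.1 and 84.3 with OmoMYC and 68.2, 73.6 and 93.8 with SNF5. The OmoMYC samples were below all EGFP samples, and replicate 3 was the highest in each group. GDF15 fell by 0.57 with OmoMYC on the log2 scale (SE 0.09, adjusted p = 0.0194), a change of −32.8%. With SNF5 the value was −0.25 (SE 0.09, 95% confidence interval −0.45 to −0.04, adjusted p = 0.0663), and it passed the test without EGFP replicate 3 (−0.36, adjusted p = 0.0106) or OmoMYC replicate 3 (−0.25, 0.0212), or with DESeq2 (−0.25, 0.0420). SNF5 exceeded OmoMYC by 0.33 (SE 0.09, adjusted p = 0.0373), and this call was lost without EGFP, OmoMYC or SNF5 replicate 1 or 2 (adjusted p from 0.0536 to 0.190).

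BTG2 and TP53INP1, a nuclear and autophagy protein that promotes p53 phosphorylation, were not called in gene body reads in any contrast. BTG2 (chr1:203274664-203278729, plus strand) had densities of 17.2, 21.4 and 20.5 with EGFP, 16.6, 25.8 and 20.3 with OmoMYC and 13.7, 19.1 and 21.8 with SNF5. TP53INP1 (chromosome 8, minus strand) had 4.19, 4.63 and 3.56 with EGFP, 3.68, 4.02 and 3.32 with OmoMYC and 3.79, 4.28 and 4.62 with SNF5. The groups of both genes overlapped. For BTG2 the log2 fold change was 0.07 with OmoMYC (95% confidence interval −0.16 to 0.30) and −0.13 with SNF5 (−0.36 to 0.10). For TP53INP1 it was −0.17 (−0.39 to 0.06) and 0.04 (−0.18 to 0.27). Without SNF5 replicate 3, BTG2 passed the test with SNF5 (−0.27, adjusted p = 0.0236) and between SNF5 and OmoMYC (−0.34, 0.0131), and TP53INP1 with OmoMYC (−0.16, adjusted p = 0.0335).

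**Figure D2:**
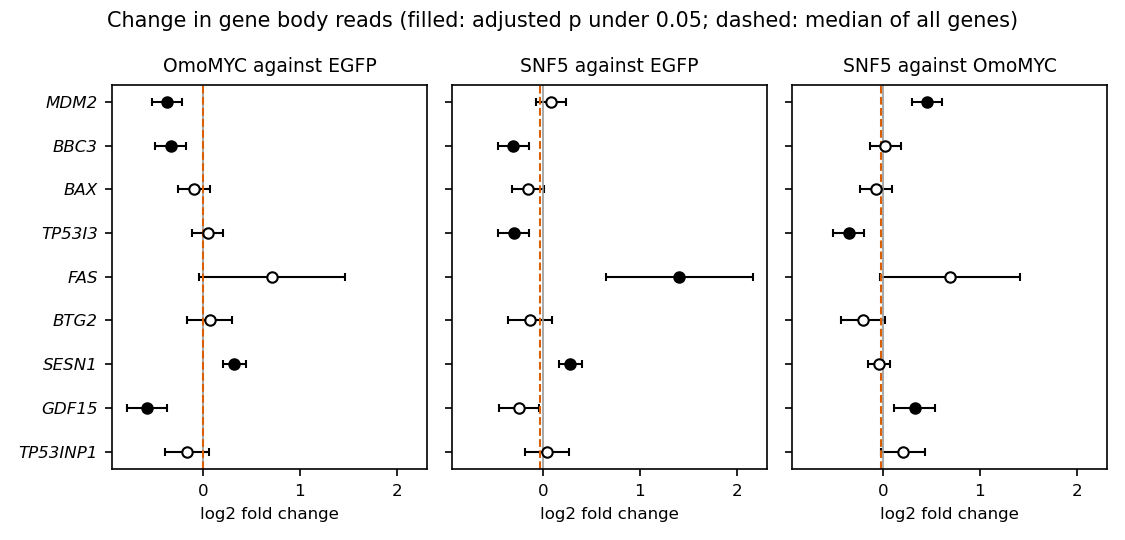
Log2 fold change of gene body reads with its 95% confidence interval for the 9 genes in each contrast. Filled points have an adjusted p under 0.05 (edgeR quasi-likelihood test) and the dashed line is the median of all genes tested. MDM2 and GDF15 were lower with OmoMYC and higher with SNF5 than with OmoMYC, and the interval of FAS is the widest.

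The level and activity of the p53 protein were not measured here. Of the p53 relatives, TP63 had 19, 16 and 14 gene body reads with EGFP, 9, 19 and 12 with OmoMYC and 32, 65 and 28 with SNF5, a log2 fold change with SNF5 of 1.11 (SE 0.34, adjusted p = 0.0342) at very low reads. TP73 was not called in any contrast (0.09 with OmoMYC, adjusted p = 0.435, and −0.13 with SNF5, adjusted p = 0.177).

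Promoter-proximal reads, counted in the richest 50-bp window around each start, were tested for 8 of the 9 genes. FAS was left out, since it had 3 to 20 such reads per sample. In each contrast 0 of the 8 were called, beside 1.8% of 11241 genes with OmoMYC, 4.27% with SNF5 and 0.827% between SNF5 and OmoMYC. At an unadjusted p under 0.05, SESN1 was higher with OmoMYC (0.76, SE 0.24, adjusted p = 0.0961), TP53INP1 was higher with SNF5 (0.47, SE 0.22, adjusted p = 0.218), and BAX and BTG2 were each lower with SNF5 than with OmoMYC by 0.44 (adjusted p = 0.358 and 0.346). DESeq2 also called 0 members in this region in any contrast. The median of all genes moved by 0.13 with OmoMYC and by −0.17 between SNF5 and OmoMYC, and these member values are to be read beside it.

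The pausing index, the ratio of promoter-proximal to gene body density, gave its only call among the members at MDM2. The MDM2 index was 2.38, 3.70 and 3.26 with EGFP, 3.77, 7.66 and 3.89 with OmoMYC and 1.81, 3.52 and 3.05 with SNF5. The OmoMYC samples lay above all others, with OmoMYC replicate 2 far above the rest. Promoter-proximal reads behind these were 98, 127 and 130 with EGFP, 112, 185 and 140 with OmoMYC and 89, 153 and 130 with SNF5. The log2 change with OmoMYC was 0.66 (SE 0.22, adjusted p = 0.0909), beside a median of 0.14 over all genes. SNF5 lay below OmoMYC by a log2 change of −0.84 (SE 0.22, adjusted p = 0.0302), beside −0.13. The latter was the only pausing call among the 8 genes tested in the 3 contrasts, beside 2.26% of 11171 genes with OmoMYC, 3.66% with SNF5 and 1.23% between SNF5 and OmoMYC. It was lost with DESeq2 (adjusted p = 0.118), without EGFP replicate 2 (0.0593), without OmoMYC replicate 1 (0.227) or 2 (0.564) and without SNF5 replicate 1 (0.174) or 2 (0.266). Without EGFP or OmoMYC replicate 3, the MDM2 index also passed with OmoMYC against EGFP (0.74, adjusted p = 0.0445, and 0.89, 0.0391).

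MDM2 has a pair of promoters, of which the internal one is known for its response to p53. The RefSeq promoter table lists 4 MDM2 starts that span 852 bp, so gene body reads, which begin 1 kb from the start in the table, can come from either promoter, while the promoter-proximal window lies near a single start. SESN1 likewise has 3 listed starts across 85.9 kb. The pausing index of SESN1 was 33.4, 128 and 64.4 with EGFP, 79.3, 167 and 57.1 with OmoMYC and 49.99, 151 and 42.8 with SNF5. Replicate 2 gave the highest index in each group for SESN1, and no SESN1 contrast was called.

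**Figure D3:**
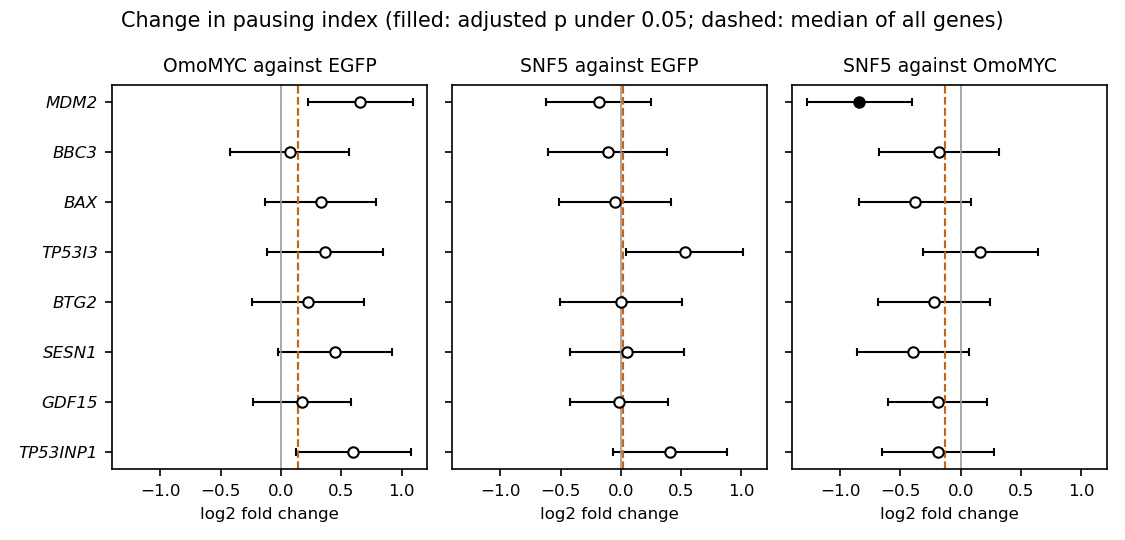
Log2 change of the pausing index with its 95% confidence interval for the 8 genes tested (filled, adjusted p under 0.05; dashed line, median of all genes). Intervals are wider than for gene body reads, and the filled point is MDM2 between SNF5 and OmoMYC.

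Of the 7 members other than MDM2, the indices changed by 0.07 (BBC3) to 0.60 (TP53INP1) with OmoMYC and by −0.11 (BBC3) to 0.53 (TP53I3) with SNF5, and none of the 7 was called.

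MYC ChIP-Seq peaks were searched within 1 kb of any annotated start of a gene. In the EGFP samples, 0 of the 9 genes had a peak in both, against 5.01% of 19949 protein-coding genes. EGFP replicate 1 held 940 peaks and EGFP replicate 2 held 5396, and 4 of the 9 genes had a peak in replicate 2 only. For all protein-coding genes the share with a peak in either EGFP sample was 25.9%. These 4 were MDM2 (fold enrichment over local background 4.92, summit at chr12:69201906, upstream of the annotated gene), BAX (6.31, chr19:49458095, in an exon of 1 transcript), SESN1 (4.03, chr6:109330553, in an intron, near an internal start) and TP53INP1 (5.50, just upstream of the gene). The OmoMYC samples had 0 peaks and the SNF5 samples 137 and 27, and 0 of the 9 genes had a peak in them. Within 100 bp of the BAX summit 3 CACGTG copies were found, 1 near that of TP53INP1 and 0 near those of MDM2 and SESN1. The copy nearest the BAX summit is shown in capitals with 12 bases to each side (hg19, chr19:49458075-49458104, plus strand), and it is also the third copy in the promoter above.
BAX summit E-box: ttgcggggcggcCACGTGaaggacgcacgt
The presence of peaks cannot be compared between constructs in amount, since the lists hold no read counts and EGFP replicate 1, with fewer peaks, had none of these.

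Open chromatin was measured at the same starts in hg38. An ATAC-Seq peak within 1 kb was present in all 3 samples for 5 of 9 genes with EGFP, 5 with OmoMYC and 7 with SNF5, against 33.8%, 30.2% and 49.0% of all protein-coding genes. MDM2, SESN1, TP53I3, TP53INP1 and BTG2 were open in all 9 samples. FAS and GDF15 made up the difference with SNF5. The number of peaks called varied from 7260 to 23684 in the EGFP and OmoMYC samples and from 22722 to 33596 in the SNF5 samples, and its part in the added SNF5 peaks was not tested.

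**Figure D4:**
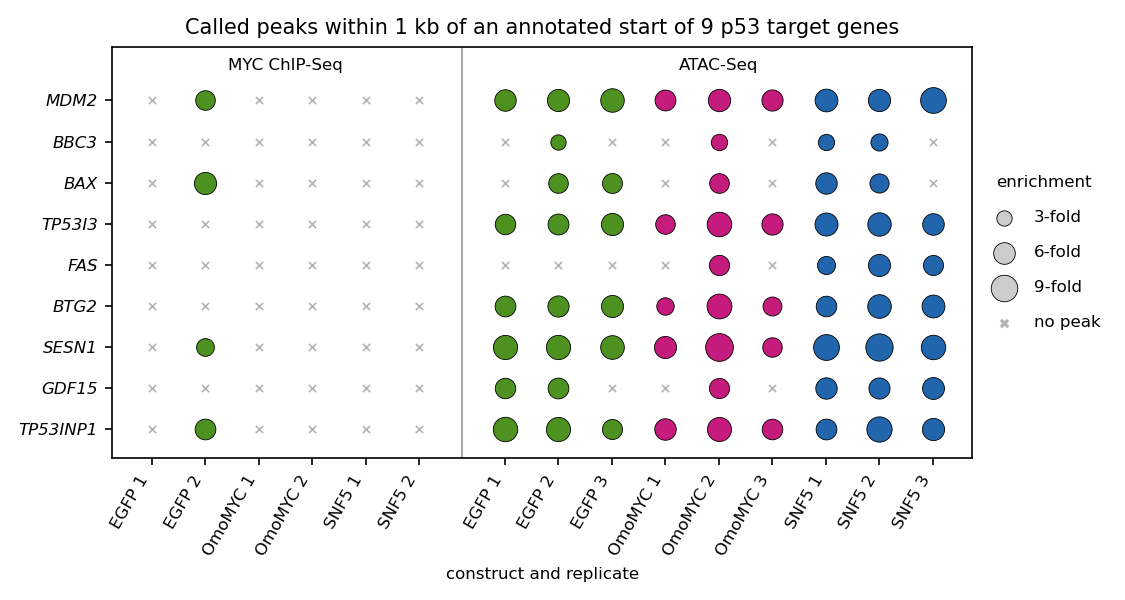
Peaks called within 1 kb of an annotated start of each gene in the 6 MYC ChIP-Seq and 9 ATAC-Seq samples. The area of a point gives the fold enrichment over local background of the strongest peak and a cross means no peak. MYC peaks appeared in EGFP replicate 2 only, and FAS had ATAC-Seq peaks in 3 SNF5 samples, 1 OmoMYC sample and 0 EGFP samples. The points of GDF15 include an upstream annotated start.

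At the FAS promoter, the site chr10:88990433-88990944 (hg38) was called in 0 of 3 EGFP samples, in OmoMYC replicate 2 (fold enrichment 5.26) and in all SNF5 samples (4.21, 6.25 and 5.16). OmoMYC replicate 2 was also the sample with the most peaks of that construct, 23684. A second site, chr10:88991220-88991457, was called in SNF5 replicates 2 and 3 (4.68 and 4.62) and in no other sample. The FAS element shown above has the same 20 bases at chr10:88991309-88991328 of GRCh38.p14, inside this second site. It is shown with 40 bases to each side (chr10:88991269-88991368, plus strand, both cores in capitals).
FAS site: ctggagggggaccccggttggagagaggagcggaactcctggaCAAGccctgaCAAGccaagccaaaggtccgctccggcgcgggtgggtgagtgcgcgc
FAS was thus the member with the largest gain in gene body reads with SNF5 and also had sites near its start called with SNF5 and not with EGFP. ACTA2 starts on the opposite strand at chr10:90751147 of hg19, close to the FAS element at chr10:90751066-90751085. The second site therefore cannot be assigned to FAS alone, and ACTA2 was also higher with SNF5, as given above. Which gene the site serves was not tested. In gene body reads EGFP replicate 3 had 338, close to the SNF5 samples, while ATAC-Seq EGFP replicate 3 had no FAS peak. The labels do not tie PRO-Seq and ATAC-Seq samples of one number to each other.

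GDF15 counted as open in all SNF5 samples through an upstream annotated start. At its RefSeq start the site chr19:18385962-18386304 was called in EGFP replicate 2 (fold enrichment 3.41), in 0 of 3 OmoMYC samples and in SNF5 replicates 1 and 2 (5.30 and 4.21). The BAX promoter site chr19:48954670-48954954, which spans most of the sequence shown above, was called in 2 EGFP, 1 OmoMYC and 2 SNF5 samples at 4.70 to 5.89. At BBC3, with an E-box in its promoter, sites were few and weak, 2.65 to 3.76, and none was called in all samples of a construct. MDM2 had a site at each of its promoter regions, chr12:68807886-68808358 and chr12:68808500-68809116, in all 9 samples, at 4.22 to 8.50 and 5.23 to 7.15.

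Other genes of the pathway were taken from 2 lists. Of 34 other p53 target genes, all tested, 1 rose and 2 fell with OmoMYC in gene body reads (4.1% of all genes rose and 4.42% fell). With SNF5, 12 rose and 5 fell (17.6% and 16.5%), and 8 were higher and 3 lower with SNF5 than with OmoMYC (11.5% and 7.38%). The median log2 fold change of these 34 was 0.03, 0.07 and 0.07, beside −0.0003, −0.03 and −0.01 over all genes. TRIM22, an antiviral ubiquitin ligase, had the largest gain with SNF5 (2.73, SE 0.33, adjusted p = 0.000556), with 24, 35 and 69 reads with EGFP, 43, 39 and 63 with OmoMYC and 312, 382 and 212 with SNF5. PMAIP1, which encodes the BH3-only protein NOXA, had 15, 8 and 7 reads with EGFP, 14, 24 and 7 with OmoMYC and 69, 57 and 11 with SNF5 (1.86, SE 0.44, adjusted p = 0.0117). SNF5 replicate 3 of PMAIP1 lay within the EGFP range.

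The arrest gene CDKN1A, which encodes p21, was not called against EGFP. Its density was 23.4, 29.4 and 34.5 with EGFP, 19.2, 25.2 and 32.7 with OmoMYC and 23.0, 30.0 and 34.8 with SNF5. The log2 fold change was −0.19 with OmoMYC (SE 0.06, adjusted p = 0.0604) and 0.005 with SNF5 (95% confidence interval −0.12 to 0.13). SNF5 exceeded OmoMYC by 0.20 (SE 0.06, adjusted p = 0.0357). CCNG1 (cyclin G1) was not called in any contrast (0.05 with OmoMYC and 0.18 with SNF5). GADD45A, a growth-arrest and DNA-repair gene, was higher with SNF5 by 0.55 (adjusted p = 0.00465), as were the autophagy gene DRAM1 (0.46, adjusted p = 0.00152), the RNA-binding ZMAT3 (0.44, 0.00137) and RRM2B, a ribonucleotide reductase subunit (0.45, 0.000821). RRM2B also rose with OmoMYC (0.30, adjusted p = 0.0269). DRAM1 was −0.23 with OmoMYC (adjusted p = 0.0667) and higher with SNF5 than with OmoMYC by 0.69 (adjusted p = 0.000315). PLK3, a polo-like kinase, fell with SNF5 (−0.64, adjusted p = 0.000461) and with OmoMYC (−0.30, 0.0439), and FDXR (ferredoxin reductase) fell with SNF5 (−0.70, 0.00129). The fall of PLK3 with OmoMYC was lost without EGFP or OmoMYC replicate 1 or 2. In those fits 5 to 9 of all genes were called with OmoMYC, all of them higher. PLK3 and FDXR also gained pausing index with SNF5 (1.07, adjusted p = 0.0261, and 0.82, 0.0338). PLK3 had 21 to 73 promoter-proximal reads per sample. AEN, an apoptosis nuclease, gained pausing index with OmoMYC (0.89, adjusted p = 0.0168). As at MDM2, the AEN index was also called lower with SNF5 than with OmoMYC (0.575-fold). Without the replicate block 0 genes were called in the pausing index in any contrast, so these calls were lost. With DESeq2 the pausing calls over all genes were 68 with OmoMYC and 101 with SNF5, in place of 252 and 409. Of the 34, PLK3, AEN, TRIAP1 and PIDD1 had a MYC peak in both EGFP samples (11.8%, against 5.01% of all protein-coding genes).

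**Figure D5:**
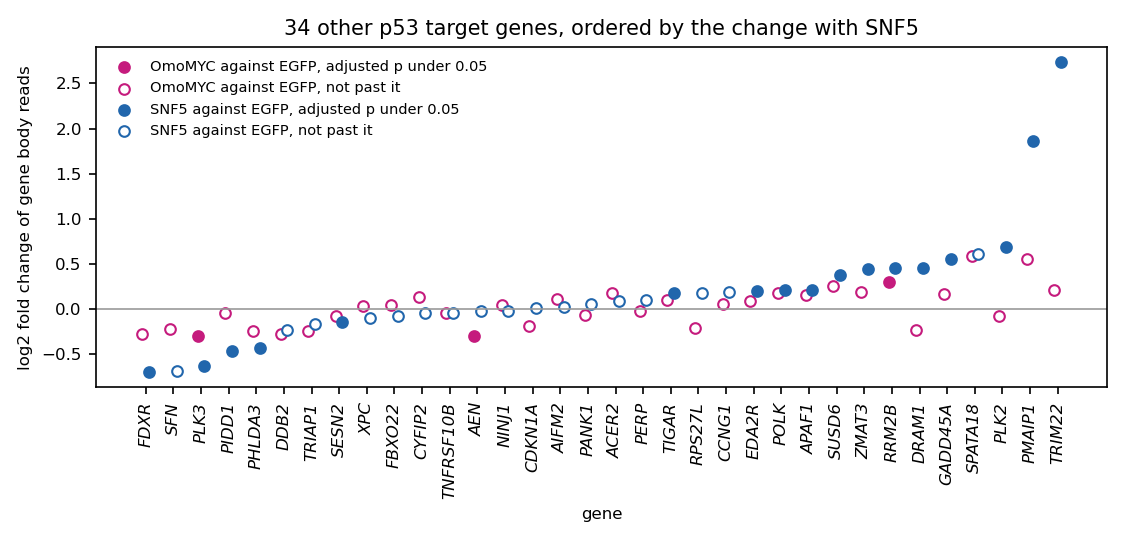
Log2 fold change of gene body reads (vertical axis) of the 34 other p53 target genes, ordered by the value with SNF5 (blue) and with the value with OmoMYC (magenta) beside it. Filled points have an adjusted p under 0.05. With SNF5 12 genes rose and 5 fell, and TRIM22 and PMAIP1 lie highest.

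Of 15 regulators of p53, 1 rose and 1 fell with OmoMYC and 2 rose and 2 fell with SNF5, with medians of −0.03 and −0.07. Between SNF5 and OmoMYC 1 was higher and 2 were lower with SNF5. Over all genes 4.1% rose and 4.42% fell with OmoMYC, 17.6% and 16.5% with SNF5, and 11.5% and 7.38% between SNF5 and OmoMYC, so the 4 of 15 with SNF5 lie near the share of all genes. HIPK2, a kinase that phosphorylates p53, rose with OmoMYC (1.42, SE 0.27, adjusted p = 0.0258) and with SNF5 (1.47, SE 0.27, adjusted p = 0.00416). Its gene body reads were 157, 148 and 300 with EGFP, 657, 516 and 441 with OmoMYC and 795, 632 and 452 with SNF5. Replicate 3 of HIPK2 changed least. PPM1D (WIP1), the phosphatase that opposes ATM and p53, followed the direction of MDM2. It was −0.26 with OmoMYC (adjusted p = 0.0261), 0.05 with SNF5 (0.490) and 0.31 between SNF5 and OmoMYC (0.00377). The fall of PPM1D with OmoMYC was lost without EGFP or OmoMYC replicate 1 or 2. CDKN2A, whose ARF product inhibits MDM2, was higher with SNF5 by 0.97 (adjusted p = 0.00873). Its density was 0.287, 0.343 and 0.348 with EGFP, 0.522, 0.603 and 0.343 with OmoMYC and 0.702, 0.926 and 0.407 with SNF5. Replicate 3 of CDKN2A changed least. With OmoMYC CDKN2A was 1.43-fold the EGFP level and was not called, nor was it called between SNF5 and OmoMYC. The checkpoint kinase CHEK2 (−0.45, adjusted p = 0.00547) and the acetyltransferase KAT5 (−0.40, 0.00687) were lower with SNF5. ATM was lower with SNF5 than with OmoMYC by a log2 fold change of −0.31 (adjusted p = 0.00816).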

How the data were processed

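PRO-Seq, MYC ChIP-Seq and ATAC-Seq of G401 cells were analysed from the deposited files. The members and gene lists were chosen with earlier results of these data known. For PRO-Seq the authors trimmed and reverse complemented reads, kept those longer than 15 bp, aligned them to hg19 with Bowtie2, removed rRNA reads and mapping quality under 10, and counted them with NRSA. The deposited table gives raw counts per RefSeq transcript for a promoter-proximal window and the gene body, with a density signal that matched count over length within 1% for 99.9% of transcripts and was used as a check. For ChIP-Seq (hg19, q 0.01) and ATAC-Seq (hg38, q 0.001) the authors called peaks in each sample with MACS2. The deposited lists give a fold ratio over local background and −log10 q, without read counts. Placeholder lines in the OmoMYC ChIP-Seq lists were dropped, and IgG samples were not used here.

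One transcript per symbol was kept (the most reads). Counts with a mean of at least 10 in a region were tested with edgeR 4.0.16 in R 4.3.3 (quasi-likelihood test), with gene body totals times RLE factors as offsets, a block for the replicate number, and p-values adjusted over all genes (Benjamini-Hochberg), called at 0.05. The pausing index was tested as the interaction of region and construct over both regions. After removal of group means, samples of the same number correlated at 0.821 to 0.921 across genes in gene body counts and others at −0.720 to 0.173, so numbers were taken as pairs. The study's methods also account for batch. The fits were tested on simulated data. Intervals of fold changes are 95%. Alternatives were TMM factors, DESeq2 1.42.0, no filter, no block and each sample left out. Starts came from GENCODE release 44, and no coordinate was converted between builds. Sequences came from GRCh37 and the RefSeq promoter table (GRCh38.p14). Other steps used Python 3.11.15 with pandas 2.3.3, NumPy 2.4.6, pysam 0.24.0 and Matplotlib 3.10.9. Named genes were the members, TP63, TP73, SMARCB1, CDKN1A, PMAIP1, CCNG1 and the 12 of the lists with the smallest adjusted p in gene body reads. The 3 genes most like MDM2 are also named. AEN, TRIAP1, PIDD1, CDKN2A and the neighbours ACTA2 and FAS-AS1 lie outside this rule and were chosen after their values were seen. A gene that the rule also named is not reported here.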

Additional observations from a re-analysis of the deposited data

Results flagged for a closer look

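The response to SNF5 and OmoMYC differed at MDM2, GDF15 and TP53I3 by a direct test of SNF5 against OmoMYC, which is the test of the difference between their changes from the shared EGFP samples. Gene body reads of MDM2 were higher with SNF5 than with OmoMYC by 0.46 on the log2 scale and those of GDF15 by 0.33, while TP53I3 differed by −0.35. The pausing index of MDM2 differed by −0.84. The MDM2 gene body difference was kept with each sample left out, that of TP53I3 in 8 of 9 such fits, the MDM2 pausing difference in 4 of 9 and that of GDF15 in 3 of 9. Groups of 3 were not tested for outlying samples, but EGFP replicate 3 of FAS had 338 gene body reads against 73 and 70 in the other EGFP samples. OmoMYC replicate 3 of FAS was also the highest of its group, with 443 reads against 121 and 169.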

How the results depend on the processing

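With TMM factors or no filter on counts, each count of called members stayed within 1.5 times its value. Without the replicate block, 0 members were called in gene body counts, promoter-proximal counts and the pausing index in all contrasts, in place of 4, 4 and 3 in gene body counts and 1 in the pausing index of SNF5 against OmoMYC. With DESeq2 the last count was 0 as well. With each sample left out in turn, called members ranged in gene body counts from 0 to 6 (OmoMYC against EGFP), 1 to 6 (SNF5 against EGFP) and 1 to 5 (SNF5 against OmoMYC), in promoter-proximal counts from 0 to 1 with OmoMYC, and in the pausing index from 0 to 1 for OmoMYC against EGFP and from 0 to 1 for SNF5 against OmoMYC. Members with a MYC peak in both EGFP samples went from 0 to between 0 and 4, being 4 without EGFP replicate 1, and members with an ATAC-Seq peak in all EGFP samples from 5 to 5 to 6, and to 3 among peaks with −log10 q of at least 10. No log2 fold change of a called member turned its sign in any of these.

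Over all genes, calls in gene body counts were 1284, 5131 and 2848 (OmoMYC against EGFP, SNF5 against EGFP and SNF5 against OmoMYC). Without the block they were 1, 225 and 75, with DESeq2 2097, 5100 and 3039, and with a sample left out 5 to 3537, 2569 to 5905 and 1201 to 3736. In the pausing index they were 252, 409 and 137, with DESeq2 68, 101 and 40, without the block 0 in each, and with a sample left out 1 to 555, 32 to 935 and 22 to 312. Without a filter the last was 195. In promoter-proximal counts they were 202, 480 and 93, without a filter 305, 790 and 258, with DESeq2 313 for SNF5 against EGFP and 61 for SNF5 against OmoMYC, without the block 0 in each, and with a sample left out 3 to 337, 52 to 1255 and 29 to 228. FAS, TP63, PMAIP1, TRIM22, HIPK2 and CDKN2A rest on few reads, and depth limits the promoter-proximal values of replicate 1.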
